A study of Danio rerio with 12 samples.

Results

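The ventricle of TCDD-treated adult zebrafish was examined 6 hours after its tip had been cut off, by comparing 2 arrays of TCDD 6 hpa (hours post amputation) with 2 arrays of TCDD 0 hpa, which are 4 of the 12 arrays of the series. All fish were adults of the AB strain. The TCDD groups had received 70 ng/g of TCDD (2,3,7,8-tetrachlorodibenzo-p-dioxin) injected intraperitoneally on the day before the operation, and TCDD 0 hpa fish were dosed and left unamputated. How long after dosing the unamputated hearts were taken is not given in the sources used here, and no sham-operated group was used here, so amputation and the rest of the surgery cannot be told apart. The groups Control 6 hpa and Control 0 hpa gave the same interval without TCDD. Their treatment is listed as none, while the protocol names a vehicle injection. Each array carried RNA pooled from the apex of 10 ventricles, the lower piece with the amputation plane, so p-values measure the spread between pools and not between fish. Members were chosen by the sample titles alone and not by any measured value.

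TCDD persists in tissue and binds tightly to the AHR, the aryl hydrocarbon receptor, which is a transcription factor that a bound ligand switches on. The receptor pairs with ARNT and drives xenobiotic-metabolising genes such as cyp1a. Adult zebrafish regrow amputated ventricle muscle, and the first hours after injury are known for bleeding, clotting, inflammation and activation of the endocardium and epicardium, before muscle cells divide. In bulk tissue of this kind, fewer cells of a type and less RNA per cell cannot be told apart.

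Of the 2 amputated TCDD pools, replicate 1 gave an outlying array, so results below are given with and without it. Its upper intensities were lower, with only the brightest 1% of its probe sets above 9.88 log2 units, against 10.41 to 10.64 on the other 11 arrays. The 3′ minus 5′ difference of its actin control probe sets, a sign of RNA quality, was 3.35 against −0.08 to 2.07 elsewhere, whereas that of its gapdh control probe sets was 1.12, inside the 0.52 to 1.96 of the other arrays. On it, 461 probe sets lay lower than on every other array by over 1 log2 unit, and 202 lay higher than on every other by as much. The 2 arrays of TCDD 6 hpa correlated at r = 0.901 across probe sets, against 0.958 to 0.979 in the other groups. Values are log2 of the deposited intensities, on which 1 unit is a factor of 2, and array medians lay between 3.26 and 3.53. Without detection calls, levels around that median cannot be taken as expression.

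The dose and the tissue showed in the arrays. Cyp1a, the cytochrome P450 gene that serves as the usual readout of AHR activation, lay at 12.03 and 11.75 in TCDD 0 hpa and at 9.38 (replicate 1) and 11.10 (replicate 2) in TCDD 6 hpa. It lay between 2.71 and 3.64 on the 6 control arrays, far below every TCDD array. Its change from 0 to 6 hpa was −1.65 ± 0.47 (standard error, limma, adjusted p = 0.117), or −0.80 ± 0.30 without replicate 1 (adjusted p = 0.337), and it did not pass in either. The ventricle muscle markers were abundant: myl7, a myosin light chain gene, stood at 12.96 and 12.87 before and at 12.32 and 12.65 after amputation, and the muscle actin gene actc1a at 13.15 and 13.08 before and 12.47 and 12.78 after. All 5 ventricle muscle markers had a probe set. The endothelial gene kdrl stood at 7.77 and 7.55 before and 5.19 and 6.84 after, whereas tie1, of the same cells, and tbx18 of the epicardium stayed between 2.77 and 3.56 on these 4 arrays, near the array median. Liver markers were near the median too, with 2.34 to 3.85 on these arrays for fabp10a, apoa2, fga and fgb. Of 4 pancreas markers, the protease gene ctrb.1 lay at 7.02 and 7.04 in TCDD 0 hpa and at 4.30 and 6.39 in TCDD 6 hpa. The other 3, prss1, cel.1 and ela2l, lay between 2.35 and 3.54 before and between 2.72 and 3.95 after.

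By 6 hours after amputation a small set of genes was many times higher and another was several times lower. Calls were made where limma gave an adjusted p below 0.05 (6 group means, Benjamini-Hochberg over 15502 probe sets). With 12 arrays 72 probe sets rose (0.464% of all tested) and 219 fell (1.41%), which makes 291 (1.88%), out of 2659 with an unadjusted p below 0.05. Without replicate 1 the counts were 63 rises (0.406%) and 38 falls (0.245%), out of 1793, and the remaining TCDD 6 hpa array is then assumed to vary like the other groups. Both fits called 25 rises (0.161%) and 37 falls (0.239%), and these 62 probe sets carry the account below. Under quantile normalization the split was 192 rises and 322 falls, and with each array centred on its median it was 25 and 106; the median of all probe sets was 0.06 as deposited, 0.01 after quantile normalization and −0.09 after centring.

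The calls also rest on the unamputated arrays. Centring each array on its median ended the calls of 37 named genes, among them mmp9, tal1, atp2b1a, histh1l1, hdr and krt94. Without TCDD 0 hpa replicate 1 limma called none, with 2012 probe sets at an unadjusted p below 0.05 and a smallest adjusted p of 0.0554. Without TCDD 0 hpa replicate 2 none were called either, with 1534 at an unadjusted p below 0.05 and a smallest adjusted p of 0.0516. A fit of the 4 arrays alone called none (1691 unadjusted, smallest adjusted p = 0.0794), and one without TCDD 6 hpa replicate 2 called 986 rises and 1438 falls. In each of these fits all 62 probe sets kept their direction and an unadjusted p below 0.05, which describes the same arrays and adds no independent ones. With 2 arrays against 2, an exact permutation test cannot go below p = 0.333 for any single gene.

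The largest rise was that of slc20a1a, a sodium-dependent phosphate transporter gene. It stood at 3.69 and 3.81 in TCDD 0 hpa and at 8.23 and 9.66 in TCDD 6 hpa, a rise of 5.20 ± 0.53 or 36.7-fold (adjusted p = 0.00984), and 60.2-fold without replicate 1 (adjusted p = 0.0065). Igfbp1a, which encodes a secreted binding protein of insulin-like growth factors known to respond to hypoxia and stress, went from 4.91 and 4.93 to 9.91 and 10.03. That is 33.2-fold with 12 arrays (adjusted p = 0.00746) and 34.6-fold without replicate 1 (adjusted p = 0.0186). Both arrays of TCDD 6 hpa gave nearly the same igfbp1a level on this probe set. The second igfbp1a probe set rose by 4.56, from 4.96 and 4.78 to 8.94 and 9.91, with replicate 1 the lower. Nt5dc2, of a family with a 5′-nucleotidase domain, went from 5.65 and 5.35 to 9.83 and 9.93 (20.8-fold, adjusted p = 0.00746). In these 3 genes the 2 groups were separated by more than 4 log2 units on average. They did not overlap, which was a condition for listing a gene among the largest rises.

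**Figure D1:**
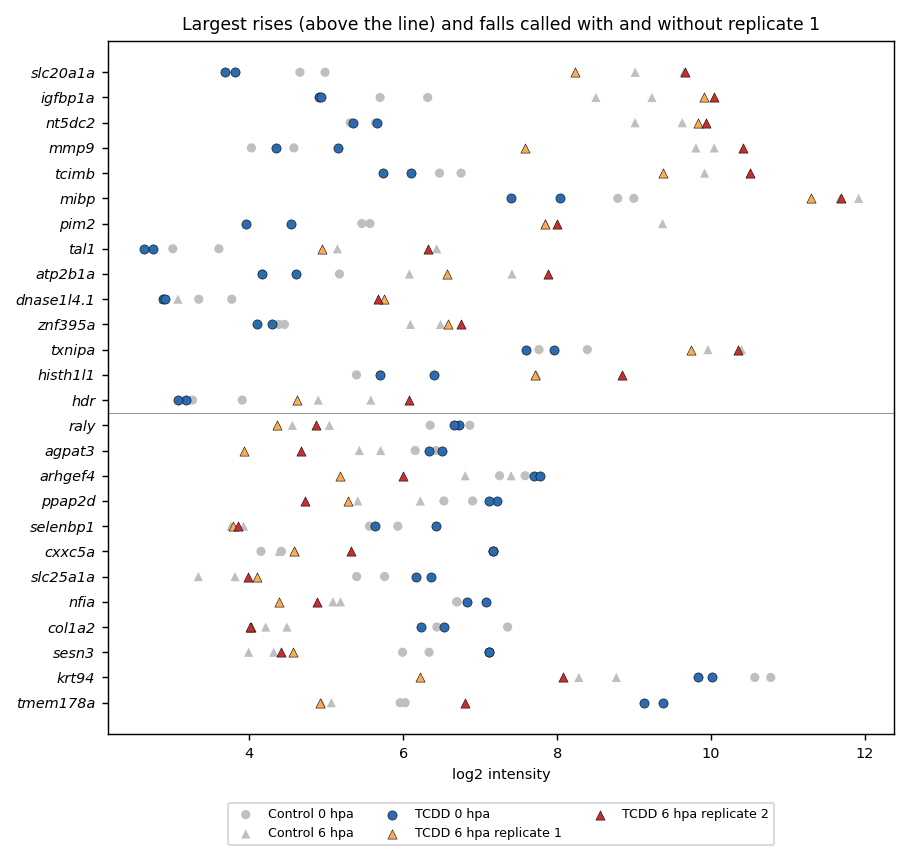
Log2 intensity (x axis) of the 14 largest rises and 12 largest falls called with and without TCDD 6 hpa replicate 1 (y axis, 1 gene a line). Each point is 1 array, grey for controls, circles at 0 hpa and triangles at 6 hpa; in igfbp1a the 2 TCDD 6 hpa arrays lie at 9.91 and 10.03, whereas in mmp9 they lie at 7.58 and 10.42.

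The next largest rises were those of mmp9, tcimb, mibp and pim2. Mmp9, the gelatinase B gene of tissue remodelling and neutrophils, went from 5.16 and 4.35 to 7.58 and 10.42. Its rise was 19.0-fold with 12 arrays (4.25 ± 0.80, adjusted p = 0.0398) and 50.7-fold without replicate 1 (adjusted p = 0.0112), and its 2 amputated pools differed from each other by more than those of the genes above. Mibp, named as a muscle-specific integrin-binding protein gene, was already well expressed at 7.41 and 8.04 and rose to 11.29 and 11.69 (13.6-fold, adjusted p = 0.0137). Tcimb went from 6.10 and 5.73 to 9.38 and 10.51 (16.3-fold, adjusted p = 0.0162). Pim2, a serine/threonine kinase gene of the cytokine response, went from 4.54 and 3.95 to 7.84 and 8.0 (12.8-fold, adjusted p = 0.0164). In none of these 4 genes did the groups overlap, which was a condition for listing them among the largest rises.

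Smaller rises called with and without replicate 1 included regulators of redox state, chromatin and blood cells. Txnipa, the thioredoxin-interacting protein gene, rose from 7.95 and 7.59 to 9.75 and 10.35 (4.84-fold). The linker histone gene histh1l1 went from 5.69 and 6.40 to 7.71 and 8.84 (4.70-fold). Tal1, a transcription factor gene of blood precursors, went from 2.75 and 2.63 to 4.95 and 6.32 (7.70-fold), starting below the array median. The haematopoietic death receptor gene hdr rose 4.68-fold, but its second probe set was at 0.67 (adjusted p = 0.373). The plasma membrane calcium pump gene atp2b1a rose 7.18-fold on 1 probe set, with 0.24 and 1.19 log2 units on the other two (adjusted p = 0.505 and 0.0761). Znf395a, a zinc finger gene, rose 5.55-fold, and dnase1l4.1, a deoxyribonuclease I-like gene, 7.02-fold. The remaining named rises in both fits were those of anp32a, mbd2, sgk1, bcl6ab and fam83d, at 0.90 to 1.91 log2 units with 12 arrays, and 5 more probe sets had no gene symbol.

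With 12 arrays the largest fall among named genes was that of tmem178a, a transmembrane protein gene, from 9.37 and 9.13 to 4.92 and 6.80. It fell 10.5-fold with 12 arrays (adjusted p = 0.0255) and 5.47-fold without replicate 1 (adjusted p = 0.0314), where sesn3 fell more. Before amputation both TCDD arrays stood above the 5.96 and 6.02 of Control 0 hpa. At 6 hpa replicate 1 lay below these control levels and replicate 2 above them, and the gene changed by −0.99 in controls. Cxxc5a, a CXXC zinc finger gene, also stood above Control 0 hpa before amputation, with 7.17 on both TCDD arrays against 4.15 and 4.42. It lay at 4.58 and 5.32 in TCDD 6 hpa. Its fall was 4.65-fold (adjusted p = 0.0137) or 3.60-fold without replicate 1 (adjusted p = 0.0186).

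The other large falls were of genes with differing roles. Col1a2, a type I collagen chain gene, went from 6.53 and 6.23 to 4.02 and 4.0 (5.16-fold, adjusted p = 0.0212), and its second probe set was at −1.62. Sesn3, a sestrin gene of the stress and nutrient response, stood at 7.12 on both unamputated arrays and at 4.57 and 4.41 after (6.17-fold, adjusted p = 0.0212). Slc25a1a, the mitochondrial citrate carrier gene, went from 6.17 and 6.36 to 4.1 and 3.98 (4.68-fold, adjusted p = 0.00987). In col1a2, sesn3 and slc25a1a replicate 1 and replicate 2 of TCDD 6 hpa lay close to each other, and these falls were as large without replicate 1 (5.19-fold, 6.51-fold and 4.87-fold). The transcription factor gene nfia fell 4.98-fold, with its second probe set at 0.02. Selenbp1, a selenium-binding protein gene, fell 4.61-fold and the lipid phosphatase gene ppap2d 4.49-fold. Arhgef4 fell 4.45-fold, the phospholipid acyltransferase gene agpat3 4.35-fold and the RNA-binding protein gene raly 4.21-fold. Krt94, a keratin gene that was high in every unamputated ventricle, went from 9.83 and 10.01 to 6.22 and 8.07, a fall of 6.84-fold, or 3.59-fold without replicate 1.

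The other named falls called in both fits were smaller. They were those of thbs3a, inhbb, ndufv1, pleca, proza, jam2a, id1, dcn, kctd12.2, msraa, etv5b, prickle1b, map2k1 and plxnd1, at −1.93 to −1.19 log2 units with 12 arrays. Among them are growth factor and receptor pathway genes: inhbb encodes an activin subunit, map2k1 the kinase MEK1, etv5b an ETS factor, id1 an inhibitor of DNA binding downstream of BMP signals, and plxnd1 a semaphorin receptor. Inhbb went from 5.11 and 5.64 to 3.78 and 3.16, and id1 from 6.54 and 6.87 to 4.95 and 5.12. A further 2 clone-named genes and 9 probe sets without a symbol complete the 37.

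**Figure D2:**
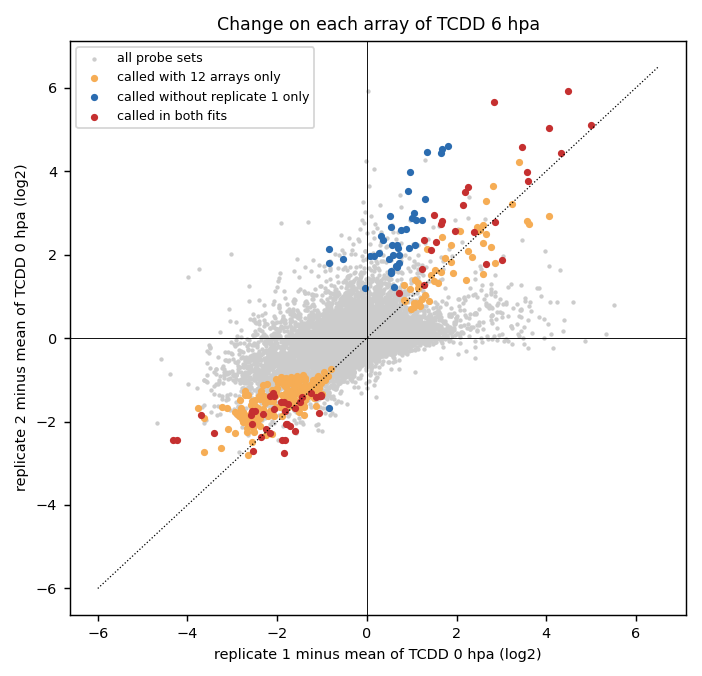
Change of each probe set on TCDD 6 hpa replicate 1 (x axis) and replicate 2 (y axis) from the mean of TCDD 0 hpa, in log2 units, with the line of equal change dotted. Both axes subtract that same mean, so part of the likeness between the arrays is built in. The 62 probe sets called in both fits lie on the same side of 0 on both arrays, those called with 12 arrays only are mostly falls, the 39 called only without replicate 1 lie mostly above 0 on replicate 2 and nearer 0 on replicate 1, and across all probe sets r is 0.527.

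Across all genes the 2 amputated pools moved in the same direction more often than in opposite ones, but by different amounts. On replicate 1, 868 probe sets exceeded the TCDD 0 hpa mean by over 1 log2 unit and 2104 lay under it by as much. On replicate 2 these were 542 and 673. Of these, 151 were more than 1 above and 581 more than 1 below on both, 35 were below on replicate 1 and above on replicate 2, and none the other way. The changes correlated at r = 0.527 over 15502 probe sets, which share arrays and are not replicates. Both changes subtract the same TCDD 0 hpa mean, so part of this correlation and of the shared direction is built in. Both TCDD 6 hpa arrays lay above both TCDD 0 hpa arrays for 25.4% of all probe sets and below both for 20.8%.

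The distance between the pools depended on level. Among 456 probe sets with a TCDD 0 hpa mean of 8 to 10, the median change was −1.98 on replicate 1 and −0.52 on replicate 2. Among the 10225 under 4 it was 0.22 and 0.02, and among the 210 at 10 or more it was −0.64 and −0.01, so the drop did not grow up to the top of the range. In controls the medians of these 3 bins were −0.60, 0.05 and −0.13. The falls of highly expressed genes are therefore given for each array in what follows. The part that the lower values of replicate 1 at these levels have in them was not tested. The bins hold all probe sets, so a list set beside a bin shares genes with it.

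**Figure D3:**
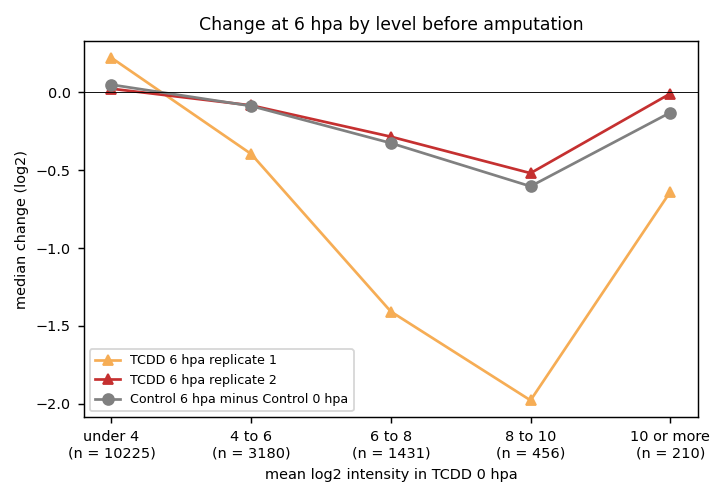
Median log2 change from 0 to 6 hpa (y axis) of probe sets binned by their mean log2 intensity in TCDD 0 hpa (x axis, number of probe sets under each bin). Replicate 1 reached −1.98 in the bin of 8 to 10, replicate 2 −0.52 and the control response −0.60.

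Matrix proteases and the matrix itself were followed in lists of 13 and 38 genes with a probe set. Of the 13 protease and inhibitor genes 1 rose with 12 arrays, mmp9, against 0.546% of all 8793 genes taken with 1 probe set each. Without replicate 1, 4 rose, against 0.5% of all genes, and none fell in either. The 3 added were mmp13a, a collagenase gene, timp2b, a tissue inhibitor of metalloproteinases, and serpine2, a protease inhibitor gene. Mmp13a stood at 6.61 and 6.56 before and at 8.25 and 11.12 after amputation (4.53 ± 0.64 without replicate 1, adjusted p = 0.0297). Timp2b stood at 3.45 and 3.42 before and at 5.24 and 8.05 after (4.61 ± 0.56, adjusted p = 0.0205). Both TCDD 6 hpa arrays were above both unamputated ones in each, and replicate 1 was about 3 log2 units below replicate 2. The list's median change was −0.04 on replicate 1 and −0.36 on replicate 2, against 0.02 and 0.00 over all genes.

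Of the 38 extracellular matrix genes 5 fell with 12 arrays (1.75% of all genes) and 3 without replicate 1 (0.318%), and none rose. Col1a1a, the partner chain of col1a2, went from 6.67 and 6.24 to 3.93 and 4.2 (−2.39 ± 0.36, adjusted p = 0.0232), and its second probe set was at −1.05 (adjusted p = 0.326). Sparc, a collagen-binding glycoprotein gene, went from 6.28 and 6.30 to 3.78 and 4.23. Thbs3a, a thrombospondin gene, went from 6.35 and 6.36 to 4.56 and 4.28. All 3 were lower on both amputated arrays, and thbs3a was called with and without replicate 1. The fibroblast proteoglycan gene dcn, the fifth, went from 6.24 and 5.96 to 4.49 and 4.43. Fn1b, a fibronectin gene that is known to rise in the regenerating epicardium, was at −1.45 ± 0.43 (adjusted p = 0.125) and −0.62 without replicate 1. The matrix list's median was −0.12 and −0.24 on the 2 arrays.

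Genes of red blood cells were mostly higher. Of 26 erythrocyte genes 10 rose with 12 arrays (0.546% of all genes) and none fell, and 17 were higher on both amputated arrays, as were 2104 of all 8793 genes. Without replicate 1 only tal1 of them passed. The list's median change was 1.18 on replicate 1 and 0.92 on replicate 2, and it was 0.86 to 1.2 after centring and quantile normalization. Epb41b, of the red cell membrane skeleton, lay at 4.91 and 4.70 before and at 8.03 on both arrays after (9.35-fold, adjusted p = 0.0222; 0.0605 without replicate 1). The anion exchanger gene slc4a1a went from 6.36 and 5.71 to 9.66 and 8.78, and klf1, the erythroid Krüppel-like factor gene, from 3.91 and 4.2 to 6.72 and 7.34. Hbaa1, an adult haemoglobin gene near the top of the scale, went from 12.53 and 12.47 to 13.55 and 13.33 (1.92-fold, adjusted p = 0.0389; 0.127 without replicate 1). The summed linear intensity of the 26 genes was 8839 and 8455 in TCDD 0 hpa, 26714 and 22135 in TCDD 6 hpa, and 26661 and 17847 in Control 6 hpa. Whether more red cells or more of their RNA stood behind this was not tested.

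The 6 thrombocyte and clotting genes held 1 rise with 12 arrays (0.546% of all genes), that of gp1bb, a platelet glycoprotein gene. Gp1bb went from 3.07 and 2.65 to 5.39 and 5.46 (2.56 ± 0.39, limma, adjusted p = 0.0232) and was not called without replicate 1. The thrombocyte integrin gene itga2b stayed between 2.5 and 2.7 on all 4 arrays.

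In the list of leukocyte genes, 6 of 29 lay above the TCDD 0 hpa mean on replicate 1 and 23 on replicate 2. Of all 8793 genes 4532 and 4414 did so. None of these 29 neutrophil and macrophage genes was called in either fit, and the list's median change was −0.80 on replicate 1 and 0.77 on replicate 2; in controls it was 0.64. Lyz, the lysozyme gene, lay at 6.95 and 6.31 before, and at 4.71 on replicate 1 and 9.40 on replicate 2. Coro1a, an actin-binding protein gene of white cells, lay at 4.53 and 5.88 before and at 4.68 and 6.86 after. The summed linear intensity of the list was 966 on replicate 1 and 4978 on replicate 2, with 2082 and 3858 in TCDD 0 hpa. Mpx, the neutrophil myeloperoxidase gene, ran against its control level: it lay at 7.90 and 5.54 in TCDD 0 hpa, 3.77 and 5.03 in TCDD 6 hpa, and 2.49 to 2.67 on the 4 control arrays of 0 and 6 hpa, while its other probe sets changed by 0.04 to 0.74. Of 23 inflammatory signal genes none was called with 12 arrays, where 0.546% of all genes rose and 1.75% fell. Nfkbiaa, the gene of the NF-κB inhibitor alpha, lay at 5.79 and 5.85 before and 6.19 and 8.16 after. Its change was 1.35 with 12 arrays and 2.34 without replicate 1, and it was called only in the latter fit.

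Immediate early and stress genes, which injured cells transcribe within minutes to hours, stood higher on replicate 2 than on replicate 1. Of 46 such genes 2 rose with 12 arrays (pim2 and klf11a) and 4 without replicate 1 (pim2, klf9, gadd45aa and csrnp1a), against 0.546% and 0.5% of all genes. The list's median was −0.83 on replicate 1 and 0.22 on replicate 2, and over both arrays it was −0.23 as deposited and 0.10 after quantile normalization. Klf11a, a Krüppel-like repressor gene, went from 6.35 and 6.04 to 8.07 and 8.42 (2.05 ± 0.41, adjusted p = 0.0443). Klf9, a glucocorticoid-responsive factor gene, went from 6.85 and 7.13 to 8.09 and 9.83, and gadd45aa, of the DNA damage response, from 2.58 and 2.7 to 3.56 and 6.15. Klf9 and gadd45aa passed only without replicate 1 (adjusted p = 0.024 and 0.0112). Both arrays were above both unamputated ones in klf11a, klf9 and gadd45aa.

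Of 15 genes of the AHR pathway, cyp1a among them, none was called by limma with 12 arrays. Over all genes 0.546% rose and 1.75% fell in that fit. Ahr2, the zebrafish receptor known to mediate TCDD toxicity, lay at 8.64 and 8.27 before amputation and at 5.87 and 7.65 after it (−1.69 ± 0.52, adjusted p = 0.138; −0.80 without replicate 1). Cyp1c1, another AHR-driven cytochrome P450 gene, lay at 9.55 and 9.31 before and at 4.76 and 7.40 after (−3.35 ± 0.90, adjusted p = 0.0998). Both genes were lower on both amputated arrays, replicate 1 more so, and neither change passed. In controls ahr2 changed by −1.18 and cyp1c1 by −1.95 over the same interval. Both genes stood at 8 to 10 in TCDD 0 hpa, where all probe sets had median changes of −1.98 and −0.52. Tiparp, which encodes a poly(ADP-ribose) polymerase that limits AHR signalling, lay at 8.12 and 7.81 before and at 7.66 and 9.12 after, so its groups overlapped. Ptges3a encodes an HSP90 co-chaperone that is known in mammals to bind the unliganded receptor. It lay at 6.13 and 6.31 before and at 6.54 and 8.65 after (1.38 ± 0.57, limma, adjusted p = 0.262). Without replicate 1 its change was 2.43, and it was called only in that fit.

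Of 22 hypoxia response genes, igfbp1a rose in both fits and epas1b, which encodes the hypoxia-inducible factor 2 alpha subunit, fell with 12 arrays. Over all genes 0.546% rose and 1.75% fell with 12 arrays. Epas1b went from 6.92 and 6.99 to 4.18 and 4.95 (−2.39 ± 0.48, adjusted p = 0.0461; 0.172 without replicate 1). In the glycolysis list of 27 genes, 3 fell with 12 arrays (1.75% of all genes): gpia, tpi1a and ldhba, enzymes of the pathway. None of the 3 passed without replicate 1 (adjusted p = 0.164, 0.0528 and 0.0812). Pfkfb4b, which makes the allosteric activator of phosphofructokinase, rose without replicate 1, from 4.24 and 4.72 to 6.14 and 8.91 (4.43 ± 0.50, adjusted p = 0.0186). The glycolysis list's median was −1.40 on replicate 1 and −0.50 on replicate 2, and −0.17 in controls. Its median level in TCDD 0 hpa was 8.59 and 8.70, and all probe sets at 8 to 10 had median changes of −1.98 and −0.52.

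Genes of mitochondrial energy metabolism were lower on both arrays. Of 86 respiratory chain and citric acid cycle genes, 81 were below both unamputated arrays on both amputated ones, as were 2083 of all 8793 genes. With 12 arrays 6 fell (1.75% of all genes), and without replicate 1 only 1 (0.318%), ndufv1, a complex I subunit gene, which went from 9.13 and 9.32 to 7.07 and 7.83 (−1.77 ± 0.25, adjusted p = 0.0222; −1.39 ± 0.22, adjusted p = 0.0416). Ndufs1 and ndufa8, also of complex I, and pdhb, of pyruvate dehydrogenase, were at −1.82, −1.73 and −1.66 with 12 arrays. The list's median was −2.09 on replicate 1 and −0.65 on replicate 2, and −0.83 in controls. Its median level in TCDD 0 hpa was 9.55 and 9.73, and all probe sets at 8 to 10 had median changes of −1.98 and −0.52. These probe sets include genes of the list, so part of the likeness is built in. The 4 genes named here stood at levels of 8 to 10 before amputation, a range in which the median probe set was lower too, as the plot of change by level shows. The part of that range in the shift of these genes and of the list was not tested.

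**Figure D4:**
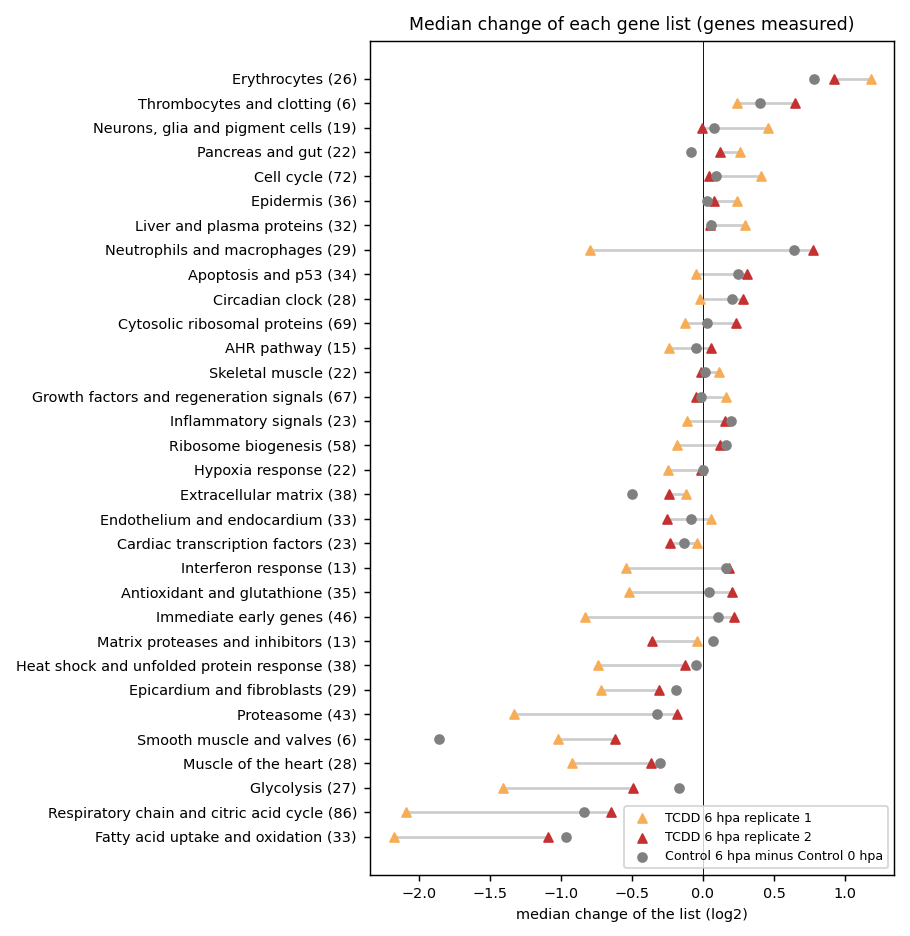
Median log2 change from 0 to 6 hpa (x axis) of 32 gene lists (y axis, with the number of genes measured). Triangles are the 2 TCDD 6 hpa arrays, joined by a line, and circles the control response; the respiratory chain lies at −2.09, −0.65 and −0.83 and the erythrocyte list at 1.18, 0.92 and 0.78.

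Of 33 genes of fatty acid uptake and oxidation 4 fell with 12 arrays (1.75% of all genes), and 27 were lower on both arrays, as were 2083 of all 8793 genes. Without replicate 1 none fell, and ucp2, a mitochondrial uncoupling protein gene, rose. Acads, a short-chain acyl-CoA dehydrogenase gene, went from 7.53 and 8.01 to 4.64 and 6.09. Cpt2, of carnitine transfer, went from 6.92 and 7.30 to 4.94 and 5.35, with a second probe set at 0.29. Etfdh, which passes their electrons to the respiratory chain, went from 8.36 and 8.30 to 5.40 and 6.56. The adjusted p of these 3 was 0.0306 to 0.0429 with 12 arrays and 0.099 to 0.143 without replicate 1. The list's median was −2.18 and −1.09 on the 2 arrays, −0.96 in controls, and −1.05 for the mean of both arrays after quantile normalization. Its median level in TCDD 0 hpa was 7.84 and 8.27. All probe sets at 6 to 8 had median changes of −1.41 and −0.28, and those at 8 to 10 of −1.98 and −0.52.

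Of 28 heart muscle genes 18 were lower on both amputated arrays than on both unamputated ones, as were 2083 of all 8793 genes. The list's median change was −0.92 on replicate 1 and −0.37 on replicate 2. Its median level in TCDD 0 hpa was 8.70 and 8.57. All probe sets at 8 to 10 had median changes of −1.98 and −0.52. The list also holds genes above 10, such as myl7, tnnt2a and actc1a, and all probe sets there had median changes of −0.64 and −0.01. Its genes were not compared with probe sets of their own level. Nexn, of the sarcomere's Z-disc, was the 1 that fell with 12 arrays (1.75% of all genes), and none did without replicate 1. It went from 7.24 and 7.18 to 4.36 and 5.44. Myh7, the ventricular myosin heavy chain gene formerly called vmhc, lay at 9.26 and 8.16 before and 6.22 and 7.70 after (adjusted p = 0.184). Of 23 cardiac transcription factor genes 3 fell with 12 arrays and none without replicate 1, against 1.75% and 0.318% of all genes. Gata5 went from 8.20 and 7.77 to 5.39 and 6.16, tbx5a from 6.32 and 5.64 to 3.89 and 4.64, and gata6 from 4.18 and 4.21 to 2.81 and 3.08; a second probe set of tbx5a was at −0.38. All 3 were lower on both arrays, and all 3 are known for roles in forming the heart.

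In the lists of other cell types few genes passed. Of 29 epicardial and fibroblast genes 3 fell with 12 arrays, podxl, cfd and dcn, and dcn alone without replicate 1, against 1.75% and 0.318% of all genes. Podxl, a sialomucin gene, went from 9.47 and 9.15 to 6.78 and 7.15. Aldh1a2, the retinoic acid synthesis enzyme known to be induced in injured endocardium and epicardium, lay at 7.91 and 6.77 before and at 6.02 and 7.70 after (−0.48 ± 0.59, adjusted p = 0.726). Its 2 groups overlapped, and in Control 6 hpa it stood at 8.49 and 8.43 over 6.35 and 7.65. Of 33 endothelial genes 3 rose (0.546% of all genes) and 2 fell (1.75%) with 12 arrays, and tal1 and id1 passed without replicate 1; the rises were tal1 and lmo2, which blood cells also express, and the water channel gene aqp1a.1, and the falls were mmrn2a and id1. Of 36 epidermal genes 2 fell, krt94 and krt15, against 1.75% of all genes, and krt94 alone without replicate 1. Of the 6 defining markers of epidermis, krt5, cdh1 and tp63 (its brighter probe set) stayed between 2.60 and 4.04 on the 4 arrays. Epcam lay at 3.04 and 2.90 before and 3.75 and 4.97 after, krt4 at 4.99 and 5.19 before and 3.88 and 4.69 after, and icn at 9.65 and 9.80 before and 7.44 and 9.82 after. These markers did not move together, and their part in the results was not tested. The summed intensity of the epidermal list was 3863 and 3647 before and 997 and 2516 after.

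Genes called with 12 arrays only were mostly falls, and those called without replicate 1 only were mostly rises. There were 47 rises and 182 falls of the first kind. All 182 falls were lower on replicate 2 too, 163 by more than 1 log2 unit, with a median of −1.82 on replicate 1 and −1.42 on replicate 2. Replicate 2 is part of the mean on which they were called, so its values are no separate check of them. Cdc42ep3, an effector gene of the GTPase Cdc42, lay at 7.81 and 7.10 before and 3.83 and 4.74 after. Palm1b, cd248a, rbp4, crip2 and ppp1r3cb followed at −2.95 to −2.61 log2 units. The largest rises of this kind were those of znfl2a, arrdc2, epb41b, slc4a1a, hif1al2 and klf1, at 2.97 to 3.49. A second arrdc2 probe set was at 0.92 (limma, adjusted p = 0.0645). There were 38 rises of the second kind and 1 fall, of a probe set without a symbol. The rises were led by timp2b, mmp13a, pfkfb4b, gadd45aa, tasor2 and guk1a. Tasor2 went from 5.02 and 5.0 to 6.06 and 8.0, and the guanylate kinase gene guk1a from 3.01 and 2.92 to 3.48 and 5.88. In these 6 genes both arrays were above both unamputated ones, by 0.52 to 1.80 log2 units on replicate 1 and by 2.92 to 4.61 on replicate 2 from their mean.

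The question whether TCDD altered the early response was tested as the difference between the TCDD change and the control change, which share no array. With 12 arrays 1 probe set of 15502 passed (0.00645%), that of dnase1l4.1, out of 176 with an unadjusted p below 0.05. Dnase1l4.1 lay at 2.88 and 2.91 in TCDD 0 hpa and at 5.75 and 5.67 in TCDD 6 hpa, whereas it lay at 3.34 and 3.77 in Control 0 hpa and at 3.07 and 2.89 in Control 6 hpa. Its change was higher in TCDD by 3.39 ± 0.26 (adjusted p = 0.00699), and by 3.35 ± 0.30 without replicate 1 (adjusted p = 0.041). Only the TCDD 6 hpa arrays stood clear of the array median, and both TCDD 7 dpa (days post amputation) arrays were back at 2.72 and 2.94. The adjusted p of this difference ranged from 0.000757 to 0.122 over the settings tried.

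The next smallest p belonged to cxxc5a, with −2.22 in TCDD and 0.21 in controls (difference −2.43 ± 0.35, adjusted p = 0.515). Arhgef4 was at −2.15 and −0.31, and rasal2, a Ras GTPase-activating protein gene, at −0.52 and 1.02. Igfbp1a was at 5.05 in TCDD and 2.86 in controls (difference 2.19 ± 0.65), mmp9 at 4.25 and 5.62 (difference −1.37 ± 1.13) and mmp13a at 3.10 and 5.21 (difference −2.11 ± 1.2). None of these 6 differences passed. The wide errors of both proteases leave differences in either direction possible in mmp9 and in mmp13a, so that they do not show an equal response.

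**Figure D5:**
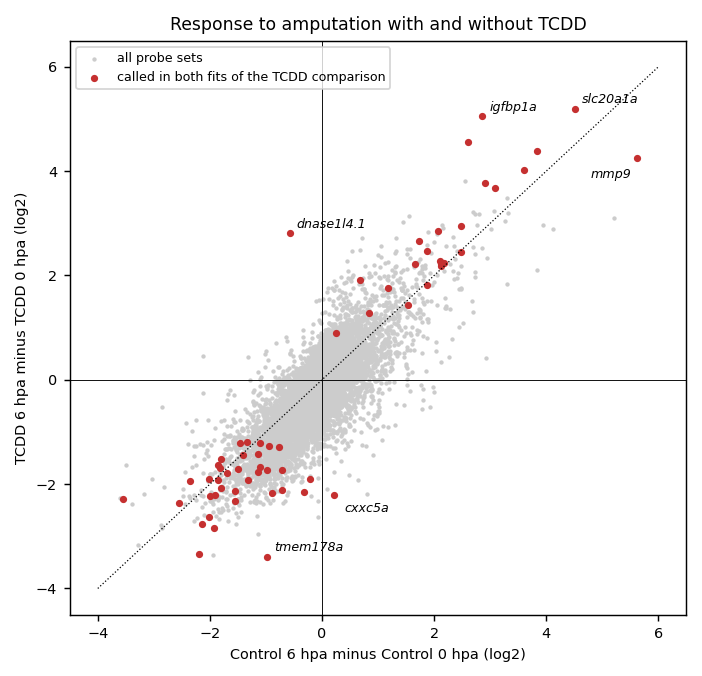
Log2 change from 0 to 6 hpa in controls (x axis) and in TCDD-treated fish (y axis) for all probe sets, with equal change dotted. Of the 62 probe sets called in both fits of the TCDD comparison (red), 60 have the same sign in controls; dnase1l4.1 lies at −0.58 in controls and 2.81 in TCDD.

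Across 15502 probe sets the TCDD and control responses correlated at r = 0.786, at 0.633 for replicate 1 alone and at 0.789 for replicate 2 alone, as a description over probe sets. Of the 62 probe sets called in both TCDD fits 60 had the same sign in controls and 31 were called there, where 25 rises (0.161%) and 49 falls (0.316%) were called in all, 0.477% of all probe sets, with 12 arrays. Probe sets called in both comparisons with 12 arrays and with the same sign numbered 54, which is 18.6% of the 291 in TCDD and 73.0% of the 74 in controls. The median over the 25 rises was 2.47 in TCDD and 2.11 in controls, and over the 37 falls −1.91 and −1.50; since they were selected on the TCDD values, the sizes are not compared. Control calls depend on TCDD 6 hpa replicate 1 through the shared spread, and without it controls had 109 rises (0.703%) and 200 falls (1.29%), together 309 (1.99%).

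Several of the largest rises were not seen on the TCDD 7 dpa arrays. Slc20a1a lay there at 3.35 and 3.72, nt5dc2 at 5.53 and 5.4, pim2 at 4.49 and 4.82 and tal1 at 2.81 and 2.89, close to TCDD 0 hpa. Igfbp1a lay at 4.7 and 6.17, tcimb at 5.01 and 6.17 and mibp at 7.33 and 8.58, with 1 array of each above both TCDD 0 hpa arrays. Mmp9 lay at 8.22 and 7.95, between its 2 levels at 6 hpa, and timp2b at 8.39 and 7.88. The collagen gene col1a2, lower at 6 hpa, lay at 9.19 and 9.28 at 7 dpa, above all 4 arrays of 0 and 6 hpa. Tmem178a lay at 8.11 and 7.53 and cxxc5a at 6.18 and 5.88, again above the control arrays of the same time (5.98 and 5.15, and 4.01 and 4.07). These levels are given as values, and the change to 7 dpa was not tested here.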

How the data were processed

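RNA from 12 pools was hybridised to Affymetrix zebrafish arrays after biotin labelling, per the labels' protocols. The authors deposited linear intensity values, 1 for each probe set on each array. The submitters' processing notes name RMA, with no software or version. RMA is built to equalise array distributions, which hides a shift of most genes, yet the upper percentiles of these arrays differ. Log2 of the deposited intensity was taken here. The array holds 15617 probe sets, of which 115 are the manufacturer's controls and 15502 were tested. Dim probe sets were kept. GEO's platform annotation, updated through a RefSeq gene table, gave 1 symbol to 10795, several to 135 and none to 4572. The authors' own comparison tables were not used.

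A model of 6 group means was fitted with limma 3.58.1 in R 4.3.3 to all 12 arrays, and again without TCDD 6 hpa replicate 1. The fit was also run on simulated arrays of equal spread. They held no outlying array, so that run does not cover the effect of replicate 1. Calls were made at a Benjamini-Hochberg adjusted p below 0.05 over all probe sets. Groups and replicate numbers came from the sample titles. Named genes are the 14 largest rises and 12 largest falls called in both fits with groups that do not overlap and a symbol that is no clone name; up to 4 called members of each list, or the 2 with the smallest p; the 6 largest in each direction called in 1 fit only; those with the smallest p of the difference; and 10 genes fixed whatever their result. Csrnp1a and ucp2 were named after their values were seen, the remaining genes called in both fits are listed, and the levels of cell type markers were given too. The 32 lists matched 1079 of 1587 entries, 31 through an older symbol, with the probe set of highest mean per gene. Comparison, lists and rule were chosen with earlier results of these data known. Alternatives were other normalizations, a filter on dim probe sets, other variance settings, array weights, fewer arrays, 1 probe set per gene, the replicate number as a block, and a fold limit.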

Additional observations from a re-analysis of the deposited data

Results flagged for a closer look

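Dnase1l4.1 differed between the TCDD and control responses to amputation, by the test of the difference itself. Its log2 change from 0 to 6 hpa was higher in TCDD by 3.39 ± 0.26 (limma, adjusted p = 0.00699), with 2.81 in TCDD and −0.58 in controls, and it was higher on both TCDD 6 hpa arrays than on each of the other 10 arrays. The difference passed without TCDD 6 hpa replicate 1 (adjusted p = 0.041) and without replicate 2 (0.0171). It did not pass without Control 6 hpa replicate 1 or 2 (0.0541 and 0.0816), without TCDD 0 hpa replicate 1 or 2 (0.0915 and 0.0863), after quantile normalization (0.0998) or in a fit of only these 4 groups (0.122).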

How the results depend on the processing

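The count of TCDD rises, 72, was 192 after quantile normalization, 25 after median centring, 9 with array weights and 0 with only the groups compared, and 0 to 986 when 1 array was left out (63 without TCDD 6 hpa replicate 1). The count of falls, 219, was 106 after median centring, 129 with trended, robust variances, 11 with array weights and 0 with only the groups compared, and 0 to 1438 when 1 array was left out (38 without TCDD 6 hpa replicate 1). Control rises, 25, were 72 after quantile normalization, 4 after centring, 198 with array weights and 9 with only the groups compared, and 0 to 109 when 1 array was left out. Control falls, 49, were 84, 18, 368 and 14 in the same settings and 2 to 200 when 1 array was left out. The single called difference became 0 after quantile normalization and with only the groups compared, and 0 to 120 when 1 array was left out. The cause of these moves was not tested, beyond the fewer arrays of some fits. No named gene with a call changed direction under these settings.

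With the replicate number as a block there were 64 rises and 195 falls under TCDD, 21 and 45 in controls, and 1 difference. The numbers were not taken as pairing the pools, since the correlation of replicate deviations between groups ran from −0.38 to 0.56 and was 0.43 between TCDD 0 and 6 hpa. The 3′ minus 5′ difference of the actin control probe sets was higher on replicate 1 than on replicate 2 in every group. That of gapdh was higher on replicate 1 in every group but TCDD 7 dpa. The part of this pattern in the changes was not tested. The limits are 2 pools per group, 1 outlying array, and no detection calls.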

Other observations

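Genes of protein breakdown and synthesis lay lower on TCDD 6 hpa replicate 1 than on replicate 2, as did the median probe set in every level bin from 4 up. Of 43 proteasome genes none was called, and the median change was −1.33 on replicate 1 and −0.18 on replicate 2. Their median level in TCDD 0 hpa was 6.40 and 6.63. All 1431 probe sets at 6 to 8, which include genes of this list, had similar median changes of −1.41 and −0.28. For psmb4, a core particle subunit gene, the levels were 8.05 and 8.25 before and 5.44 and 7.63 after. Of 38 heat shock and unfolded protein response genes none was called, with medians of −0.74 and −0.12. The 69 cytosolic ribosomal protein genes had medians of −0.12 and 0.23, and none was called. Of them 62 were above the TCDD 0 hpa mean on replicate 2 and 26 on replicate 1, against 4414 and 4532 of all 8793 genes. Rpsa, of the small subunit, was at 0.84 ± 0.18 (limma, adjusted p = 0.0533). With 12 arrays 0.546% of all genes rose and 1.75% fell. The absence of calls in these lists was therefore not read as a result.

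Among antioxidant and glutathione genes, gpx1a, a glutathione peroxidase gene, rose 3.61-fold and cat, the catalase gene, fell from 7.12 and 7.29 to 4.78 and 5.53 with 12 arrays (limma, adjusted p = 0.0303 for both), and neither passed without replicate 1 (0.0859 and 0.0926). Keap1a, of the oxidative stress sensor, passed only without replicate 1 (1.72 ± 0.22, adjusted p = 0.024). In the apoptosis list of 34 genes bbc3, the p53 target PUMA, rose only without replicate 1, from 4.65 and 4.06 to 5.11 and 6.94 (adjusted p = 0.024). Of 72 cell cycle genes 1 rose with 12 arrays, cdkn1bb, a cyclin-dependent kinase inhibitor gene, by 1.83 ± 0.32 (adjusted p = 0.0327; 0.0841 without replicate 1), with a second probe set at 1.23. Pcna, of DNA replication, was at −0.38 ± 0.29 (adjusted p = 0.547). Over all genes 0.546% rose and 1.75% fell with 12 arrays, shares at which lists of these sizes hold few calls.

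The other lists held few calls with 12 arrays, where 0.546% of all 8793 genes rose and 1.75% fell. Of 67 growth factor and regeneration signal genes, igfbp1a rose and inhbb and cxxc5a fell, with and without replicate 1. Of 32 genes of liver and plasma proteins 2 fell, rbp4 and the transferrin gene tfa, the latter from 5.03 and 4.63 to 3.33 and 3.87, and neither passed without replicate 1. With 12 arrays limma called none of 58 ribosome biogenesis, 28 circadian clock, 22 pancreas and gut and 22 skeletal muscle genes. The same held for 19 neuron, glia and pigment cell, 13 interferon response and 6 smooth muscle and valve genes. At the shares over all genes, lists of these sizes hold few calls or none, so this was not read as a result.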
